A study of Mus musculus with 9 samples.

Results

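The small Maf factors *Mafg*, *Mafk* and *Maff*, the transcription factors that pair with them (*Bach1*, *Bach2*, *Nfe2l1*, *Nfe2l2* and *Nfe2l3*) and *Keap1*, the inhibitor of the *Nfe2l2* product Nrf2, were followed in embryonic mouse lenses that lacked *Mafg*, or *Mafg* and *Mafk*. These 9 genes were selected by symbol, and each had 1 entry among the 15820 entries of the expression table that carried a symbol. RNA-seq had been done on lenses of mouse embryos (stage E16.5, days after mating) in 3 genotypes, with 3 libraries per genotype and 8 pooled lenses per library. Control lenses were *Mafg*+/-:*Mafk*+/-, compound KO lenses were *Mafg*-/-:*Mafk*+/- and double KO lenses were *Mafg*-/-:*Mafk*-/-. The controls thus carried 1 knockout allele of each gene and were not wild type. The knockouts were germline deletions on an ICR background, and the exons that they remove are not given in the sources used here. No source says that libraries of the same genotype came from separate litters, so the p-values measure the spread between these libraries.

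Small Maf proteins bind DNA through a basic region and leucine zipper (bZIP) but lack a domain that activates transcription. As pairs with each other they mostly repress genes, whereas as pairs with a CNC factor (Nrf1, Nrf2 or Nrf3, from *Nfe2l1*, *Nfe2l2* and *Nfe2l3*) they activate genes that carry an antioxidant response element, and as pairs with Bach1 or Bach2 they repress many of the same genes. Nrf2 is held in the cytoplasm and sent to degradation by Keap1 with the ubiquitin ligase Cul3, and oxidants release it. Bach1 leaves DNA when it binds heme, which opens heme and iron genes such as *Hmox1*. In the lens, a tissue exposed to light and oxidants throughout life, this network is known for its control of antioxidant enzymes.

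The 3 small Maf genes were compared in coding sequence. Shown is the stretch of 90 bases in which *Mafk* and *Maff* were together most like *Mafg*, in the part that encodes the DNA-binding basic region. It was picked for this likeness, so its identity does not stand for the whole genes. The stretch covers coding bases 151 to 240 of each gene, read 5′ to 3′ from GRCm39, and capitals mark bases that differ from *Mafg*. It lies in an exon at chr11:120520359-120520448 on the minus strand for *Mafg*, at chr5:139785954-139786043 on the plus strand for *Mafk* and at chr15:79241735-79241824 on the plus strand for *Maff*.
Mafg: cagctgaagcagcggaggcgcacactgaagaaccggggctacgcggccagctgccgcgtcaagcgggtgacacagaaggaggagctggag
Mafk: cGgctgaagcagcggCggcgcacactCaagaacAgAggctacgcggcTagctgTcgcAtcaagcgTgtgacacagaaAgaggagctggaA
Maff: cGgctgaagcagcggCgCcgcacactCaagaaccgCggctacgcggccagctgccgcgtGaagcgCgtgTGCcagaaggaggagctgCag
In each of *Mafk* and *Maff*, 11 of these 90 bases differed from *Mafg* (87.8% identical). Over the whole canonical transcripts, the longest run of identical bases was 23 between *Mafg* and *Mafk*, 23 between *Mafg* and *Maff* and 17 between *Mafk* and *Maff*. These runs are shorter than the sequenced reads, so no full read could lie in a run that these transcripts share.

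Letters of the element that small Maf pairs bind were also found near the starts of some of these genes. The letters TGACNNNGC, a form of the antioxidant response element, were searched on both strands of RefSeq promoter windows (GRCm38.p6, 250 bases before to 50 after each start). They occurred in 4071 of 32851 windows (12.4%). A match was found in the only window of *Nfe2l2*, *Mafk* and *Mafg* and in 1 of 3 windows of *Maff*, and none in the windows of *Bach1*, *Bach2*, *Nfe2l1*, *Nfe2l3* and *Keap1*. The 4 matches are printed with their flanks because they lie at the small Maf genes and at *Nfe2l2*. Of the small Maf genes only *Mafg* and *Mafk* were deleted, and *Nfe2l2* is the partner gene with the clearest pattern below. Matched letters are in capitals, and each sequence is on the strand of its gene.
Nfe2l2, chr2:75704865-75704913: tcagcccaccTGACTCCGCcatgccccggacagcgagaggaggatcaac
Mafk, chr5:139791493-139791561: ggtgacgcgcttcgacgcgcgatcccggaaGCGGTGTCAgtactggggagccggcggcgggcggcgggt
Mafg, chr11:120633731-120633797: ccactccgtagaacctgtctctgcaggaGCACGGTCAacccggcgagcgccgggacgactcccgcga
Maff, chr15:79346479-79346547: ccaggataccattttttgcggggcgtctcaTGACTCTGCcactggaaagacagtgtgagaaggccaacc
The match began 240 bases upstream of the start in *Nfe2l2*, 222 in *Mafg*, 112 in *Maff* and 13 in *Mafk*. In *Mafk* and *Mafg* it read TGACNNNGC on the other strand. These are matches of letters in a window, and binding was not measured.

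Levels are given as normalized CPM, in which the authors scaled counts by library total and by 1 composition factor per library. The totals ranged from 728036 to 1131184, follow from this scaling and are not depths. The depth behind a value is unknown, so errors are those between libraries. Of 10 lens markers, 9 were in the table, and all 9 were at 1 or more in every library. Compound KO replicate 1 stood apart: its lens markers summed to 18740, against 45759 to 64724 in the other 8 libraries. Its fibroblast and periocular mesenchyme markers summed to 2138, against 174 to 339, with *Twist2* at 0 in 1 control library. Most of the 2138 came from *Col1a1* (1173.6) and *Col3a1* (660.5). Not every marker moved with its sum. In this library *Pdgfra* (72) was the lowest of all libraries and *Col1a2* (33.7) was below compound KO replicate 2 (49.1). The lens marker *Pax6* (162.7) was the highest of all libraries there. Results are therefore also given without compound KO replicate 1 where it moves them. Genotypes were compared with limma on log2 of the value plus 1, which understates the change of genes with low values. Benjamini-Hochberg adjustment ran over every gene in a comparison. A gene was called where it changed by 1.5-fold or more and had an adjusted p no higher than 0.05.

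The loss of *Mafg* and *Mafk* RNA followed the labels, and among the 9 genes only these passed the test in any comparison. *Mafg* (chr11:120515942-120524530 of GRCm39) was at 112.9, 120.7 and 134.5 in the control libraries. It was at 10.1, 21.0 and 24.1 in compound KO lenses and at 24.6, 21.2 and 26.2 in double KO lenses. All 6 *Mafg*-/- libraries lay far below the control libraries, but none was at 0. The mean of 123 ± 10.9 (SD, n = 3) in control lenses compared with 18.4 ± 7.35 (n = 3) in compound KO and 24 ± 2.55 (n = 3) in double KO lenses, or 15% and 19.6% of control. The values sum all transcripts assigned to the gene, so RNA from the exons that the allele leaves is counted with the rest. In a bulk library, fewer cells of a type and less RNA per cell cannot be told apart.

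*Mafk* (chr5:139776804-139788408) was expressed at a low level, at 5.2, 6.3 and 5.6 in control lenses. With 1 *Mafk* knockout allele as in the controls, compound KO lenses had 4.3, 5.3 and 4.8, so these groups overlapped. Double KO lenses had 0.6, 0.0 and 0.3, below every other library. The double KO mean was 5.26% of that in control lenses. The annotation has *Tmem184a* on the opposite strand across 16.1% of the exon bases of *Mafk*. The authors made strand-specific libraries, but whether the counting used strand is not given in the sources used here.

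*Maff*, the third small Maf gene (chr15:79230821-79243276), is known as the small Maf most readily induced by stress and inflammation. Its values were 3.6, 5.1 and 3.2 in control, 4.3, 3.5 and 3.9 in compound KO and 5.1, 5.2 and 4.1 in double KO lenses. The 3 groups overlapped. Its mean in double KO lenses, 4.80 ± 0.608 (n = 3), was 121% of that in control lenses, 3.97 ± 1.0 (n = 3).

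**Figure D1:**
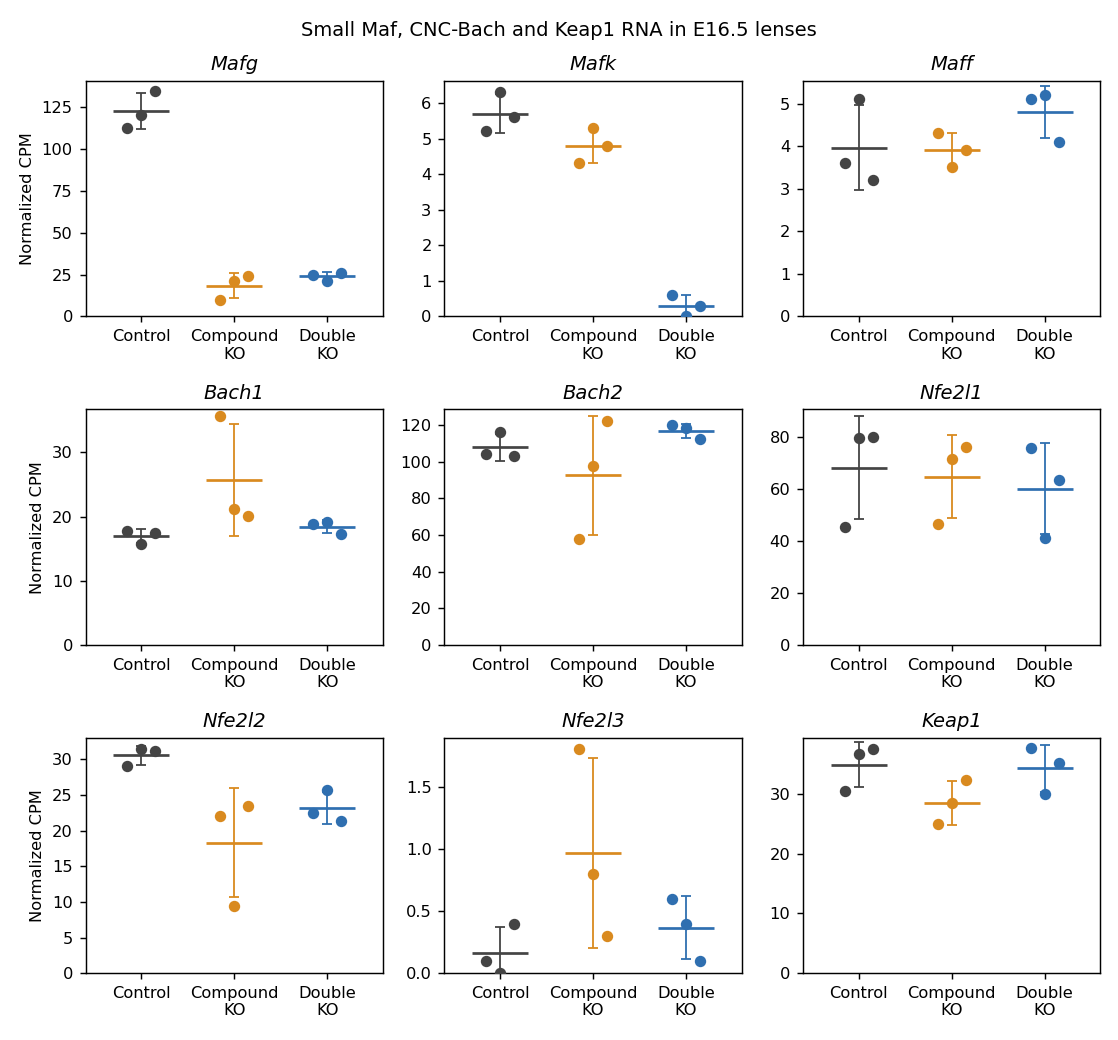
Normalized CPM (vertical axes, each from 0) of the 9 genes in control, compound KO and double KO lenses; points are the 3 libraries of each genotype, in replicate order, horizontal bars the means and error bars 1 SD. *Mafg* lies at 112.9 or more in control and at 26.2 or less in the other libraries, *Mafk* is near 0 in double KO lenses only, and *Nfe2l2* is at 29.0 or more in control and at 25.7 or less in both knockouts.

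Between double KO and control lenses, 2 of the 8 genes that could be tested were called, *Mafg* and *Mafk*, where 0.361% of all 14122 genes were called and 2.83% passed the looser rule of a 1.5-fold change with an unadjusted p no higher than 0.05. *Mafg* fell by 2.31 on the log2 scale (SE 0.10, adjusted p = 0.00170) and *Mafk* fell by 2.39 (SE 0.20, adjusted p = 0.0166). *Maff* differed by 0.24 (95% interval −0.21 to 0.68, adjusted p = 0.739). The call of *Mafk* was lost in 6 of 14 alternatives, with adjusted p-values from 0.0131 to 0.183, whereas its difference kept its direction in all 14. It was lost, for example, without control replicate 1 (adjusted p = 0.0612), control replicate 2 (0.0650), control replicate 3 (0.0862) or double KO replicate 3 (0.0736).

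Between compound KO and control lenses none of the 8 genes was called, nor was any of the 14348 genes tested (0%), although 766 genes (5.34%) passed the unadjusted rule. *Mafg* was among these, with a log2 fold change of −2.75 (95% interval −3.54 to −1.97, adjusted p = 0.188). Without compound KO replicate 1, the library with the least *Mafg* RNA, it was called, with a log2 fold change of −2.39 (adjusted p = 0.0174). *Mafk* differed by −0.21 (95% interval −0.57 to 0.15, adjusted p = 0.520), and this turned to 0.01 when values were scaled by library size.

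Between double KO and compound KO lenses, whose labels differ in *Mafk* only, again none of the 8 genes was called, where 2 of 14402 genes (0.0139%) were. By the unadjusted rule *Mafk* passed, as did 3.06% of all genes. Its log2 fold change was −2.18 (95% interval −2.71 to −1.65, adjusted p = 0.118) without overlap, as in 15.6% of all genes, and it was called in a joint fit of all 9 libraries (adjusted p = 0.0171). *Mafg*, null in both, differed by 0.44 (95% interval −0.36 to 1.25, adjusted p = 0.665), and by 0.08 without compound KO replicate 1.

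With the 6 *Mafg*-/- libraries set against the 3 control libraries, *Mafg* was the only one of the 8 genes called, at a log2 fold change of −2.53 (adjusted p = 0.0171), where 0.11% of genes were. This call was lost without control replicate 1, 2 or 3, with adjusted p-values of 0.0665, 0.0884 and 0.0929.

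Per kilobase of exon, *Mafg* was the most abundant of the 9 genes in control lenses. It had 14.4 normalized CPM per kilobase, followed by *Bach2* at 10.7, *Nfe2l1* at 8.63, *Keap1* at 6.12, *Nfe2l2* at 5.59, *Bach1* at 2.34, *Maff* at 1.25, *Mafk* at 1.01 and *Nfe2l3* at 0.0276. Among neighbours in this order, *Nfe2l1* and *Keap1*, *Keap1* and *Nfe2l2*, and *Maff* and *Mafk* overlapped between libraries. With the longest transcript as the length, *Nfe2l1* stood at 13.3, above *Bach2* at 12.0, and *Nfe2l2* at 8.50, above *Keap1* at 7.71. The control libraries of *Mafg* (13.6 to 16.2) and *Nfe2l1* (8.80 to 15.6) then overlapped.

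The summed level of the 3 small Maf genes per kilobase was 16.7 ± 1.26 (SD, n = 3) in control lenses, 4.24 ± 0.837 (n = 3) in compound KO lenses and 4.38 ± 0.240 (n = 3) in double KO lenses. The knockouts were at 25.4% and 26.3% of control, and their libraries overlapped with each other. In control lenses *Mafg* made up 86.4% of it, *Maff* 7.5% and *Mafk* 6.08%. In compound KO lenses *Mafg* made up 49.5%, *Maff* 30.1% and *Mafk* 20.5%, and in double KO lenses *Mafg* 64.3%, *Maff* 34.5% and *Mafk* 1.18%. The sum is a level of RNA, and the exons that the remaining *Mafg* and *Mafk* RNA comes from are unknown. *Maff* alone reached at most 1.6 per kilobase in control and 1.63 in double KO libraries.

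**Figure D2:**
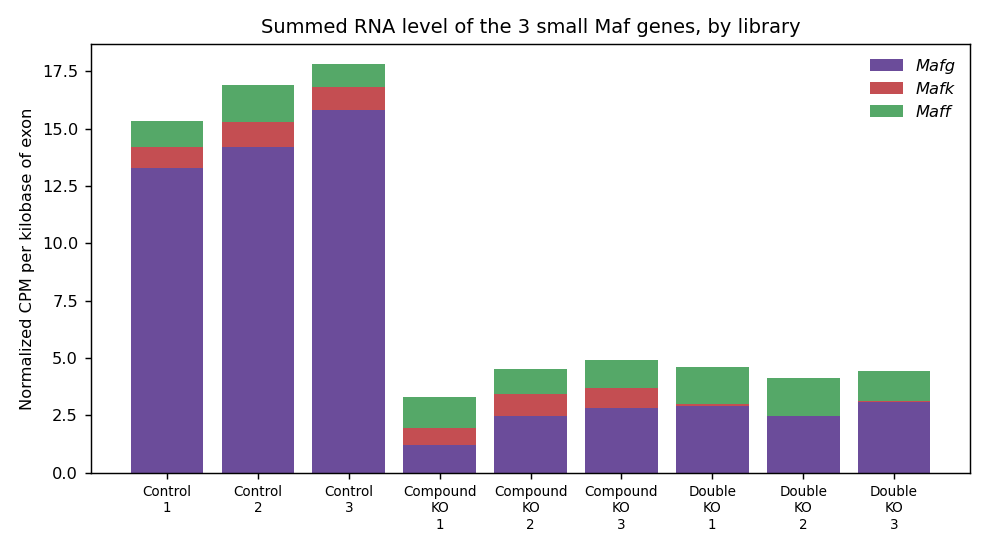
Summed level of *Mafg*, *Mafk* and *Maff* in each of the 9 libraries, in normalized CPM per kilobase of exon, with 1 stacked bar per library and colours for the genes. Control libraries reach 15.3 to 17.8 and are mostly *Mafg*, whereas all 6 knockout libraries stay at 4.91 or less, with almost no *Mafk* in the double KO.

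Among the partner genes, *Nfe2l2* was the one whose values lay lower in both knockouts than in control lenses. It encodes Nrf2, the CNC factor that activates antioxidant enzymes. Its values were 29.0, 31.4 and 31.2 in control lenses (chr2:75504739-75534985). They were 22, 9.5 and 23.4 in compound KO lenses and 22.5, 25.7 and 21.3 in double KO lenses. All 6 *Mafg*-/- libraries lay below the 3 control libraries, and the knockouts overlapped with each other.

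*Nfe2l2* passed no test after adjustment. Between double KO and control lenses its log2 fold change was −0.39 (SE 0.09, 95% interval −0.60 to −0.17, adjusted p = 0.251). It was lower without overlap, as 8.04% of all genes were in this comparison. Its fold change stayed between −0.46 and −0.32 and was negative in 15 of 15 alternatives, with adjusted p-values from 0.201 to 1. In compound KO against control lenses it was −0.80 (95% interval −1.64 to 0.03, adjusted p = 0.481), lower without overlap as were 11.7% of genes. Without compound KO replicate 2, the library at 9.5, this was −0.41 (95% interval −0.68 to −0.14, adjusted p = 0.480). Over all 6 *Mafg*-/- libraries against control it was −0.60 (95% interval −1.21 to 0.02, adjusted p = 0.669), lower in 6 of 6 libraries. In that comparison 6.95% of genes did not overlap, 4.27% lower and 2.68% higher. Scaled by library size, the compound KO and the pooled *Mafg*-/- libraries overlapped with control. Between the knockouts *Nfe2l2* differed by 0.42 (95% interval −0.43 to 1.27, adjusted p = 0.674).

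*Bach1*, the heme-sensing repressor (chr16:87495782-87530234), was at 17.8, 15.8 and 17.5 in control lenses. It was at 35.7, 21.2 and 20.1 in compound KO lenses and at 18.9, 19.1 and 17.3 in double KO lenses. Every compound KO library was thus above every library of the other genotypes, while double KO and control lenses overlapped.

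The difference in *Bach1* between compound KO and control lenses was 0.52 on the log2 scale (95% interval −0.05 to 1.09, adjusted p = 0.481), with higher values without overlap as in 12.2% of all genes. It was 0.26 without compound KO replicate 1 (adjusted p = 0.393), so this library held much of its size. The fibroblast, neural retina, skeletal muscle, endothelial and macrophage marker sums were all highest in this library, and their part was not tested. Between double KO and compound KO lenses *Bach1* differed by −0.41 (95% interval −0.98 to 0.16, adjusted p = 0.665), lower without overlap as were 7.39% of genes (8.17% were higher), and by −0.16 without that library. Double KO lenses differed from control by 0.11 (95% interval −0.09 to 0.31, adjusted p = 0.736) and overlapped, where 7.78% of genes lay higher without overlap.

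*Bach1* stood higher relative to *Nfe2l2* in the knockouts, which was looked at after the values had been seen and is a description only. The ratio of *Bach1* to *Nfe2l2* was 0.614, 0.503 and 0.561 in the control libraries. It was 1.62, 2.23 and 0.859 in compound KO lenses and 0.840, 0.743 and 0.812 in double KO lenses. All 6 *Mafg*-/- libraries had a higher ratio than any control library.

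**Figure D3:**
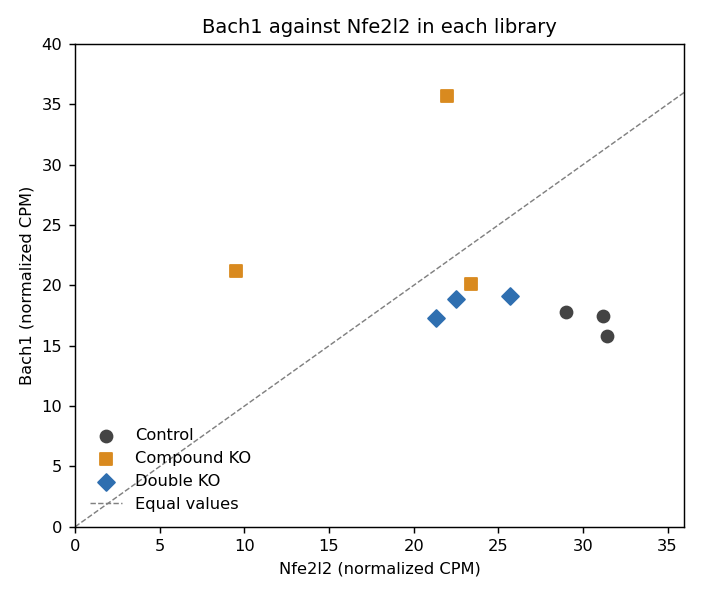
*Bach1* (vertical axis) against *Nfe2l2* (horizontal axis), both in normalized CPM, with 1 point per library, marker shapes for the genotypes and a dashed line at equal values. The 3 control libraries lie furthest to the right, at 29.0 to 31.4, and 2 compound KO libraries lie above the line.

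*Bach2*, a repressor best known from B lymphocytes (chr4:32238714-32586108), was well expressed in these lenses. It was at 104.0, 116.0 and 103.0 in control and at 119.8, 118.0 and 112.2 in double KO lenses. Compound KO lenses varied most, with 57.5, 97.7 and 122.0, the lowest value again in compound KO replicate 1. Its log2 fold change was 0.12 (95% interval −0.04 to 0.27, adjusted p = 0.630) in the double KO against control. Between compound KO and control lenses it was −0.28 (95% interval −0.97 to 0.40, adjusted p = 0.620), and 0.02 without compound KO replicate 1. The 4 B lymphocyte markers chosen for comparison were not analysed here, because none has an entry in the table used.

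*Nfe2l1* encodes Nrf1, which is anchored in the endoplasmic reticulum and drives proteasome genes (chr11:96705767-96720813). It spread widely within each genotype, with 45.2, 79.6 and 79.9 in control, 46.4, 71.6 and 76.2 in compound KO and 75.8, 41.0 and 63.6 in double KO lenses. Its intervals were the widest of the partner genes between double KO and control lenses. The log2 fold change was −0.18 (95% interval −0.96 to 0.61, adjusted p = 0.906) there, and −0.06 (95% interval −0.80 to 0.68, adjusted p = 0.932) between compound KO and control lenses. Both intervals reached past a 1.5-fold change in either direction, and the sign of both turned in at least 1 alternative.

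*Nfe2l3*, which encodes the related factor Nrf3 (chr6:51409650-51438796), was at the edge of detection. It was listed at 0.1, 0.0 and 0.4 in control, 1.8, 0.8 and 0.3 in compound KO and 0.6, 0.4 and 0.1 in double KO lenses. Only 1 library reached a value of 1, so the gene was not tested, and without a filter no comparison had an adjusted p under 0.487. In the annotation 52.4% of its exon bases lie across exons of *Hnrnpa2b1* on the opposite strand.

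*Keap1* (chr9:21141026-21150679) varied least of the 9 genes over all libraries, with a coefficient of variation of 13.7%. Its values were 30.5, 36.6 and 37.4 in control, 24.9, 28.4 and 32.2 in compound KO and 37.6, 30 and 35.1 in double KO lenses, with overlap throughout. It differed by −0.02 (95% interval −0.32 to 0.27, adjusted p = 0.968) in the double KO against control. Between compound KO and control lenses the difference was −0.28 (95% interval −0.62 to 0.05, adjusted p = 0.481).

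**Figure D4:**
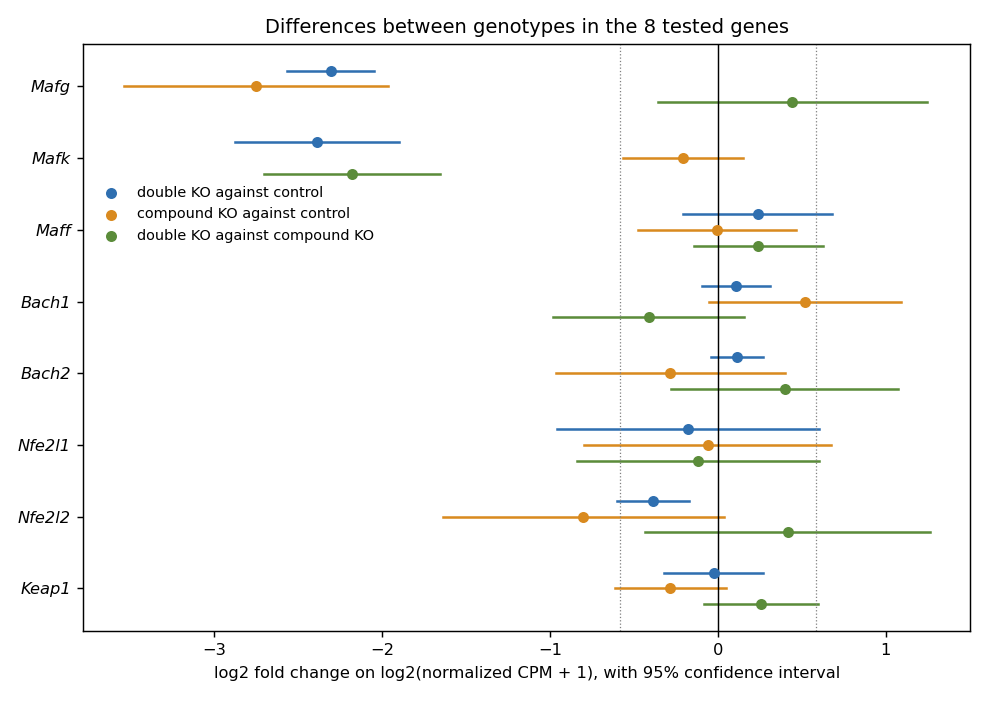
Log2 fold changes of the 8 tested genes on the log2(normalized CPM + 1) scale (horizontal axis) for the 3 comparisons of genotypes; points are estimates, lines 95% confidence intervals, and dotted lines mark a 1.5-fold change either way. Only *Mafg* and *Mafk* have intervals that lie wholly beyond a dotted line, and the interval of *Nfe2l2* lies below 0 between double KO and control lenses.

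Genes whose values followed these genes most closely over the 9 libraries were then listed among 14009 genes, as a description. All libraries share the same genotype structure, so any gene that separates the genotypes scores high. *Mafg* was tracked most closely by *Trex1* (r = 0.980), *Slain1* (r = 0.975) and *Gm12829* (r = 0.974). *Trex1*, a DNA exonuclease, had a mean of 35.2 in control, 5.83 in compound KO and 6.53 in double KO lenses, and its 6 *Mafg*-/- libraries lay at 7.3 or less against 25.3 or more in control.

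*Mafk* was tracked by *Iqsec2* (r = 0.932), *Sipa1l1* (r = 0.931) and *Usp47* (r = 0.928). Of these, *Sipa1l1* spanned the widest range, with 22.8, 33.7 and 60.4 in control, 55.2, 31.0 and 50.4 in compound KO and 3.0, 4.1 and 2.3 in double KO lenses. *Usp47*, a deubiquitinase, had a mean of 114 in control, 106 in compound KO and 81.7 in double KO lenses. *Bach1* was tracked by *Cds2* (r = 0.995), *Cenpm* (r = 0.994) and *Hn1* (r = 0.993). All of these had their highest value in compound KO replicate 1, for example 113.7 in *Hn1* against 44.9 or less in the other libraries.

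The other genes of the pathway were summarised by role. *Mafa*, a large Maf factor, was at 13.4 ± 1.10 (n = 3) in control, 5.83 ± 2.32 (n = 3) in compound KO and 8.07 ± 1.17 (n = 3) in double KO lenses. Between double KO and control lenses this was −0.68 on the log2 scale (adjusted p = 0.175). It passed the unadjusted rule there, as did 2.83% of all genes. *Mafa* lay below control in all 6 *Mafg*-/- libraries, without overlap, as did 4.27% of all genes.

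Genes that degrade Nrf2 and Bach1 or process Nrf1 did not pass the test in any comparison, nor the unadjusted rule. Between double KO and control lenses 0.361% of all genes were called and 2.83% passed the unadjusted rule, so lists this short would seldom hold a call. Of 9 tested degradation partners none was called there, with a median of −0.05, which turned to 0.02 when scaled by library size. Without overlap 2 of 9 lay lower, against 8.04% of all genes, and 1 when scaled by library size (4.0% of all genes). *Cul1*, a ubiquitin ligase scaffold, differed by −0.18 (adjusted p = 0.402) and *Dpp3*, a peptidase that binds Keap1, by −0.11 (adjusted p = 0.564). Of 6 tested genes of Nrf1 processing none was called either, and 2 lay lower without overlap, or 0 when scaled by library size. *Nploc4*, a cofactor of the segregase Vcp, differed by −0.20 (adjusted p = 0.310) and *Ddi2*, the protease that cleaves Nrf1, by −0.11 (adjusted p = 0.535).

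Proteasome subunits, the best known Nrf1 targets, had mostly small negative fold changes. None of 31 was called between double KO and control lenses, or passed the unadjusted rule. The median was −0.22, and 22 of 31 lay lower without overlap, against 8.04% of all genes. Between compound KO and control lenses the median was −0.32 and 24 of 31 lay lower without overlap, against 11.7% of all genes. These comparisons share their control libraries. Without compound KO replicate 1 the latter were −0.24 and 25 of 31, against 15.5% of all genes. Scaled by library size, the median was −0.15 with 15 of 31 lower without overlap (4.0% of all genes) in the double KO, and −0.07 with 8 of 31 (2.98% of all genes) in the compound KO, while the median of all genes moved to 0.07 and 0.24. *Psmc1* was at 202 ± 4.19 (n = 3) in control, 150 ± 23.1 (n = 3) in compound KO and 163 ± 4.92 (n = 3) in double KO lenses, where the log2 difference from control was −0.31 (adjusted p = 0.0766). *Psmc3* differed by −0.32 (adjusted p = 0.138) in the double KO.

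Some targets of Nrf2 and of Bach1 rose. Between double KO and control lenses 4 of 20 tested Nrf2 targets were called higher, namely *Hmox1*, *Gclm*, *Ftl1* and *Me1*, and none lower. Of all genes tested 0.361% were called there, 40 of 51 of them higher. The list median was 0.17 against 0.01 over all genes. Of the 20 targets 15 had positive and 5 negative fold changes. Without overlap 10 lay higher and 2 lower, against 7.78% and 8.04% of all genes. Of 9 Bach1-repressed heme and iron genes, which share *Hmox1*, *Gclm* and *Ftl1* with the former list, 4 were called higher, the fourth being *Slc48a1*. All 9 had positive fold changes, with a median of 0.36, as had 7451 of 14122 genes tested. Between compound KO and control lenses, where 0% of all genes were called, no gene of either list was called. There 5 of 20 Nrf2 targets lay higher without overlap and 3 lower, against 12.2% and 11.7% of all genes. Of 9 Bach1-repressed genes 2 lay higher and 0 lower. Without compound KO replicate 1 these were 10 and 4, and 6 and 1, against 2255 and 2183 of 14042 genes.

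In each of the 5 called genes the compound KO mean lay between the control and the double KO mean. The genes were picked as higher in double KO lenses, which favours this order. *Ftl1* overlapped between the knockouts, and the others lay higher in double KO lenses without overlap, as did 8.17% of all genes. None of the 5 was called between the knockouts (adjusted p = 0.665 in each). *Hmox1*, the heme-degrading enzyme, was at 1.8, 1.2 and 3.5 in control, 3, 14.1 and 12.6 in compound KO and 24.9, 20.4 and 24.7 in double KO lenses (log2 fold change 3.0, adjusted p = 0.0233). *Slc48a1*, a heme transporter, was at 30.5, 27.1 and 30.3 in control, 62.2, 146.1 and 143.9 in compound KO and 164.5, 166.5 and 163.1 in double KO lenses (2.45, adjusted p = 0.000379). It was also called over all *Mafg*-/- libraries against control (2.16, adjusted p = 0.0496), where 0 genes were called by limma without control replicate 3 (721 had an unadjusted p under 0.05). The glutathione gene *Gclm* rose by 1.06 (adjusted p = 0.00230), the ferritin light chain gene *Ftl1* by 1.35 (adjusted p = 0.00929) and *Me1*, a source of NADPH, by 0.77 (adjusted p = 0.00934). In these 5 genes the lowest value among the *Mafg*-/- libraries was in compound KO replicate 1.

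All 7 erythroid markers were in the table and none was at 0. They summed to 1170 to 1639 in control, 1425 to 2832 in compound KO and 2335 to 3867 in double KO lenses. None of 7 was called between double KO and control lenses, whereas 4 were higher by the unadjusted rule. Of all 14122 genes 0.361% were called there, and 225 were higher by the unadjusted rule. The part of erythroid cells in the heme gene differences was not tested. For other cells, all 4 endothelial markers were detected and summed to 26.5 to 36.8 in control, 35.4 to 109 in compound KO and 31.9 to 37.2 in double KO lenses. The 5 macrophage markers in the table (of 7) summed to 7.6 to 9.6, 13.8 to 22.3 and 5.4 to 8.6. The 5 skeletal muscle markers summed to 2.4 to 2.9 in control, 14.4 to 131 in compound KO and 17.0 to 43.4 in double KO lenses. The muscle regulator *Myod1* was called higher in double KO (adjusted p = 0.00386) and in all *Mafg*-/- libraries (adjusted p = 0.0195) than in control. In these comparisons 0.361% and 0.11% of all genes were called. All 4 muscle markers tested in the double KO comparison were higher by the unadjusted rule, against 225 of 14122 genes. *Myod1* and *Ttn* were at 0 in 1 control library each. *Myod1* did not follow the muscle sum. In compound KO replicate 1, where that sum was 130.6, it was at 2.6, against 6.2 to 9.2 in the other *Mafg*-/- libraries. The 5 neural retina markers summed to 17.3 to 60.8, 70.6 to 369 and 24.5 to 89.2, with *Crx* at 0 in 1 control and 1 double KO library. Compound KO replicate 1 held the highest sum for endothelium (108.9), macrophages (22.3), muscle (130.6) and retina (368.7). The other compound KO libraries had 40.9 and 35.4, 15.3 and 13.8, 20.9 and 14.4, and 130 and 70.6, in the same order. The part of these cells in the values of the 9 genes was not tested.

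**Figure D5:**
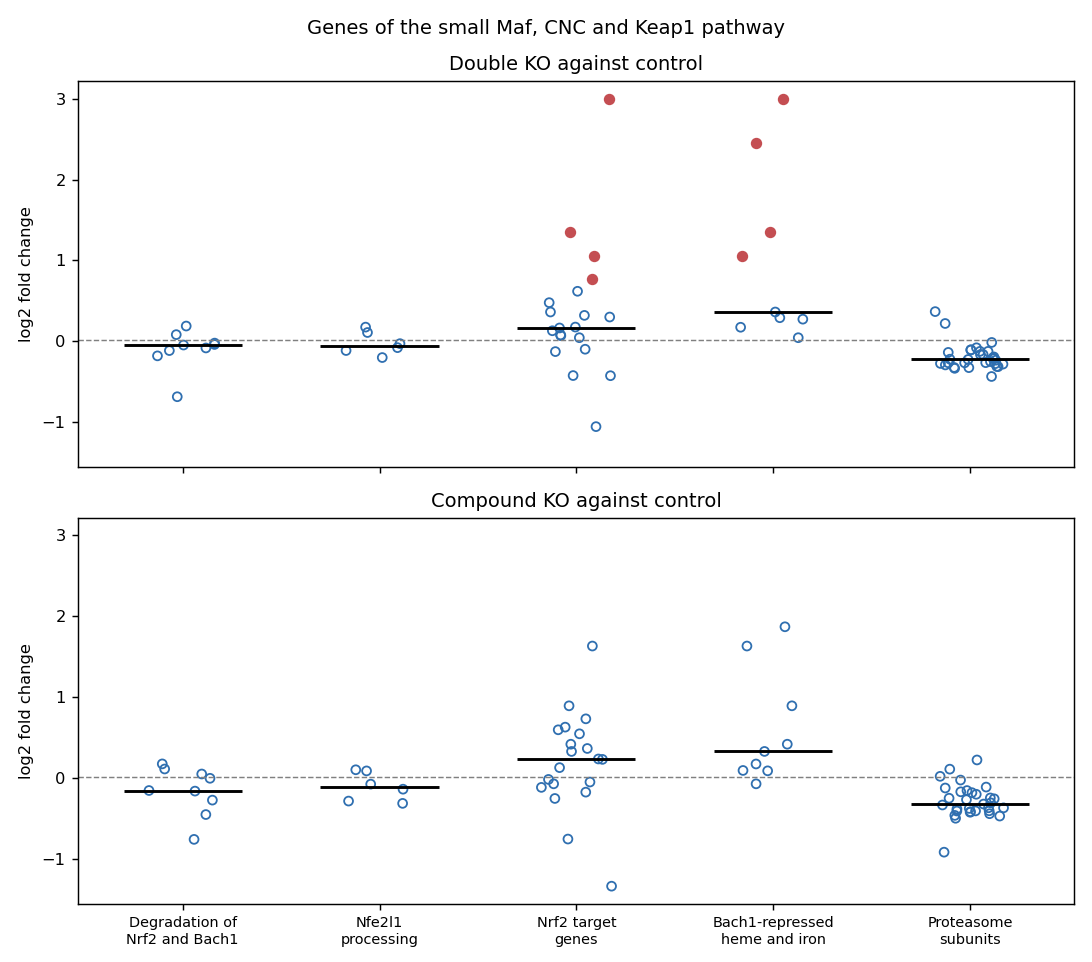
Log2 fold changes on the log2(normalized CPM + 1) scale (vertical axes) of the genes of 5 pathway lists, between double KO and control lenses (top) and compound KO and control lenses (bottom); each circle is a gene, filled red where called, black bars are list medians and dashed lines the median of all genes tested. Called genes lie among Nrf2 targets and Bach1-repressed genes of the double KO comparison, and most proteasome subunits lie below 0 in both.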

How the data were processed

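RNA of E16.5 lenses had been sequenced in 9 libraries, grouped by the labelled genotypes. The authors trimmed reads with Trimmomatic, aligned them to mm39 with HISAT2, estimated transcript-level counts with StringTie, and normalized and filtered them with edgeR. Versions are not given in the sources used here. The deposited values are a signal normalized by the authors, CPM with 1 decimal that carry a composition factor for each library. That is read from the totals, whose geometric mean is 1000012. Depth is unknown.

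Genotypes were compared with limma 3.58.1 in R 4.3.3 on log2(value + 1), with an intensity trend, two-sided, for each pair of genotypes and for the 6 *Mafg*-/- libraries against control. Entries needed a symbol and 2 libraries with a value of 1 or more. The 6193 entries without a symbol were left out. The test was tested on simulated data.

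The 9 genes, the pathway lists and the markers were chosen with earlier results of these data known, so a list's direction is not independent evidence. Besides the 9 genes, the text names pathway genes that were called in any comparison, the 2 of each list with the smallest p between double KO and control lenses (1 list is not reported here beyond *Mafa*), and for *Mafg*, *Mafk* and *Bach1* the 3 genes with the highest Pearson correlation over 9 libraries. Markers are named where they were at 0, and for compound KO replicate 1 where single markers are set beside their sum. Positions, exon lengths and coding sequences come from GENCODE release M39 on GRCm39, promoters from RefSeq on GRCm38.p6. Python 3.11.15, numpy 2.4.6, pandas 2.3.3 and matplotlib 3.10.9 were used.

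Alternatives were upper quartile and library size scaling, no filter, a filter at 1 in each library, a joint fit of the 3 genotypes, a pseudocount of 0.1, a block for the replicate number, no intensity trend, summed duplicate symbols, the longest transcript as length, an unadjusted p, and each library left out in turn. The list counts without compound KO replicate 1 and under other scalings were added after seeing the data. A comparison of the protein sequences was planned and is not reported here. Libraries of the same replicate number were checked for correlation, which was weak, and the main fits took them as unpaired.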

Additional observations from a re-analysis of the deposited data

Results flagged for a closer look

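In 3 of the 9 genes, 1 of the 6 *Mafg*-/- libraries stood apart from the other 5 by Dixon's criterion, by which chance marks about 1 in 20 groups. The 6 libraries hold 2 genotypes. *Mafg* was at 10.1 in compound KO replicate 1, with the next value at 21.0, a gap of 0.677 of the whole range. *Bach1* was at 35.7 in the same library, with the next value at 21.2 and a gap of 0.788 of the range. This is the library with the lowest lens marker sum. It has the highest fibroblast, neural retina, skeletal muscle, endothelial and macrophage marker sums, whose part in these values was not tested. *Nfe2l2* was at 9.5 in compound KO replicate 2, with the next value at 21.3 and a gap of 0.728 of the range.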

How the results depend on the processing

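The depth behind these values is unknown, so the spread between 3 libraries per genotype sets the precision, and low genes such as *Nfe2l3* were not tested. *Mafg* was called between double KO and control lenses in 15 of 15 alternatives. The number of the 9 genes called in that comparison, 2, became 1 when every library had to reach a value of 1 (*Mafk* then goes untested), with a pseudocount of 0.1 and with the replicate block, and was 1 to 2 with each library left out. Between compound KO and control lenses it was 0, and 1 with an unadjusted p, or 0 to 1 with each library left out. Between the knockouts it was 0, and 1 in a joint fit of all 9 libraries or with an unadjusted p. For the *Mafg*-/- libraries against control it was 1, and 0 to 1 with each library left out.

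Same-numbered libraries correlated by −0.106 to 0.216 after removal of group means. Libraries with different numbers were not compared in this way, so whether the numbers pair them was not settled. With the replicate block the calls among all genes went from 51 to 10 between double KO and control lenses and from 16 to 0 for *Mafg*-/- against control, where the 9 genes then had 0 calls. In a joint fit of all 9 libraries, 51 became 19. Leaving out single libraries gave 22 (without control replicate 3) to 47 calls in the first and 0 (without control replicate 3) to 71 (without compound KO replicate 1) in the second of these comparisons, and 0 to 13 (without compound KO replicate 1) between compound KO and control lenses. Between the knockouts it gave 1 to 6 against 2, with 5 in the joint fit, 1 with a pseudocount of 0.1 and 0 with a value of 1 in every library. Scaled by library size, *Mafg*-/- against control had 21 higher and 4 lower calls in place of 10 and 6.

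Signs turned only in differences that were not called. Scaling by library size, which moved the median of all genes to 0.24 between compound KO and control lenses, gave 0.044 for *Keap1* between double KO and control, 0.21 for *Maff*, 0.0080 for *Mafk* and 0.19 for *Nfe2l1* between compound KO and control, and 0.079 for *Bach2*, 0.0052 for *Keap1* and 0.042 for *Nfe2l1* in *Mafg*-/- against control. The cause was not tested. With each library left out, *Keap1* ranged from −0.11 to 0.065 and *Nfe2l1* from −0.45 to 0.071 between double KO and control, *Bach2* from −0.51 to 0.022, *Maff* from −0.12 to 0.15 and *Nfe2l1* from −0.33 to 0.16 between compound KO and control, *Nfe2l1* from −0.34 to 0.13 between the knockouts, and *Bach2* from −0.14 to 0.079 and *Nfe2l1* from −0.39 to 0.017 in *Mafg*-/- against control.

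With the longest transcript as the length, control levels per kilobase were 12.0 for *Bach2*, 13.3 for *Nfe2l1*, 7.71 for *Keap1*, 8.50 for *Nfe2l2*, 2.88 for *Bach1*, 1.81 for *Maff* and 1.16 for *Mafk*, and the summed small Maf level in double KO lenses was 5.15.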
